A study of Mus musculus with 6 samples.

Results

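Metabotropic glutamate receptors are G protein-coupled receptors through which glutamate, the main excitatory transmitter of the brain, slows down or tunes transmission at a synapse. The genes described here are Grm2 to Grm8, 7 of the 24594 entries of the count table, found by matching the mouse gene symbols to the NCBI gene identifiers of the table. The data are nuclear RNA-seq counts from sorted nuclei of the cerebellum of 7-month-old mice, in 3 libraries of genotype Ezh1(cKO/cKO);Neurod1-Cre (cKO) and 3 of genotype Ezh1(wt/wt);Neurod1-Cre (WT). Both genotypes carry Neurod1-Cre, a recombinase named after a transcription factor of granule neurons. Nuclei positive for NeuN, a neuronal nuclear protein, were sorted after fixation. Neither the insertion site of the Cre nor the deleted exons of Ezh1 are given in the labels. The comparison of the genotypes asks whether postmitotic neurons need the histone mark H3K27me3, which the PRC2 enzyme encoded by Ezh1 deposits, for the control of their genes.

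The receptors fall into groups by sequence and coupling. Group I receptors, here Grm5, couple to Gq proteins and phospholipase C and act mostly on the postsynaptic side. Group II (Grm2 and Grm3) and group III (Grm4, Grm6, Grm7 and Grm8) couple to Gi/o proteins, lower cyclic AMP, and mostly act at presynaptic terminals, where they reduce release. In the cerebellum, mGlu4, the product of Grm4, is known from the parallel fibre terminals of granule cells, and mGlu2 and mGlu5 from Golgi cells, the inhibitory interneurons of the granular layer.

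Libraries held 6340236 to 6827022 counts in cKO and 6682805 to 8284768 in WT. Ezh1, the targeted gene, was at 53.0 ± 2.35 CPM (counts scaled to library size, per 1e6) in cKO nuclei, against 76.6 ± 6.17 CPM in WT nuclei (SD, n = 3 each), with a log2 fold change of -0.53 (SE 0.10, edgeR adjusted p = 0.00672). Replicate 1 of each genotype had Xist at 831 CPM (cKO) and 812 CPM (WT), where the other 4 libraries had at most 4.46 CPM, and it had almost no Y-linked counts. The labels do not say that each library is a separate animal, and p-values measure the spread between these samples only. All 16 granule cell markers were detected, with summed levels of 5054 to 6036 CPM in cKO and 5224 to 5381 CPM in WT. Of these 16 markers 2 were called (edgeR adjusted p below 0.05), where 0.587% of all 13115 tested genes were called. Neurod1, whose name the Cre carries, had 317, 318 and 287 CPM in cKO and 138, 154 and 134 CPM in WT (log2 fold change 1.11, edgeR adjusted p = 8.04e-10), and Neurod2 was lower in cKO (-0.44, adjusted p = 0.0269). Other cell types were present at lower levels. Purkinje cell markers summed to 446 to 654 CPM in cKO and 529 to 740 CPM in WT, and markers of Golgi cells and other inhibitory interneurons to 174 to 201 CPM in cKO and 184 to 218 CPM in WT. Markers of unipolar brush cells, small excitatory interneurons, summed to 81.4 to 99.9 CPM in cKO and 62.5 to 84.0 CPM in WT, with Sln at 0 in every library and 4 of the 6 markers below 1 CPM on average. Most of that sum was Tmem163 (57.7 to 80.6 CPM in cKO and 55.9 to 66.0 CPM in WT), and Eomes had 21.6, 18.7 and 21.1 CPM in cKO and 15.7, 6.13 and 8.98 CPM in WT, with no overlap (log2 fold change 1.00, edgeR adjusted p = 0.0868). Astrocyte and Bergmann glia markers summed to 159 to 177 CPM in cKO and 148 to 185 CPM in WT, and oligodendrocyte lineage markers to 308 to 696 CPM in cKO and 256 to 450 CPM in WT. Microglial, vessel and choroid plexus markers summed to at most 33.1 CPM in any library. The choroid plexus list (5.47 to 8.77 CPM in cKO and 3.63 to 5.46 CPM in WT) was the 1 list whose genotypes did not overlap. They were parted only by 5.47 CPM in cKO replicate 1 against 5.46 CPM in WT replicate 3, and 3 of the 4 markers were below 1 CPM on average. Most of the sum was Kcnj13, whose genotypes overlapped. It had 4.61 CPM in cKO replicate 1 and 5.22 CPM in WT replicate 3 (log2 fold change 0.51, edgeR adjusted p = 0.539). In such bulk samples, fewer cells of a type and less RNA per cell cannot be told apart.

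Promoters were read for 5 of the 7 genes, Grm2, Grm3, Grm6, Grm7 and Grm8, from 250 bases before to 50 bases after each RefSeq start (GRCm38.p6). Mammalian PRC2 is found mostly at CpG-rich promoters, so the CpG content of these windows is background to a comparison of Ezh1 genotypes. The first listed window of Grm8 and the window of Grm6 were chosen after the values were seen, because Grm8 was the receptor gene whose genotypes did not overlap, Grm6 was the receptor gene with almost no counts, and their CpG contents lie far apart. Each is written 5′ to 3′ on the strand of the gene, and capitals mark every CG, which reads the same on both strands.
Grm8, chr6:28135097-28135396, minus strand: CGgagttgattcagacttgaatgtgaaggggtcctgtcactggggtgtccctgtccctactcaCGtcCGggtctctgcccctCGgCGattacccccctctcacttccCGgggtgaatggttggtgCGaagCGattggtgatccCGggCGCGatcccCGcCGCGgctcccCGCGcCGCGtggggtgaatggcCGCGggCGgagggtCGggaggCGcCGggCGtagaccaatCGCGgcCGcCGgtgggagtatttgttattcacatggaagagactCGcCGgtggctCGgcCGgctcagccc
Grm6, chr11:50850435-50850734, plus strand: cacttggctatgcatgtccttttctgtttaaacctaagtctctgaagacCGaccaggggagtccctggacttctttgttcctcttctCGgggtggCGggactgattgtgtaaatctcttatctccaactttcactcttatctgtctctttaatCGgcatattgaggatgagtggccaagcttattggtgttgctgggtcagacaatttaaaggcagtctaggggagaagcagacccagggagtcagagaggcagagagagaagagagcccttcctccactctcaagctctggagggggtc
The Grm8 window held 33 CG pairs, and 8.6% of all 32851 promoter windows of the table held as many or more. The Grm6 window held 4, a number that 68.6% of windows reached, and at least 1 CG was present in 94.6% of windows. Grm2 held 22 and Grm3 held 11. Grm7 held 10 and 15 at its 2 listed starts, and the other 2 starts of Grm8 held 10 and 2. The median over all windows was 7. These are counts of letters and say nothing of what binds there.

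Grm4 outweighed every other receptor gene. Scaled per kb of exon (the union of GENCODE exons), cKO libraries averaged 130.0 ± 9.94 CPM and WT libraries 125 ± 13.3 CPM, which was 91.9% ± 1.77 in cKO and 92.7% ± 0.736 in WT of the summed exon-length-scaled level of the 7 genes. Grm7 followed at 5.39 ± 2.37 CPM per kb in cKO and 4.48 ± 0.43 in WT, and Grm3 at 3.21 ± 0.59 in cKO and 2.76 ± 0.757 in WT. The next 3 genes lay close together. Grm8 was at 1.36 ± 0.042 CPM per kb in cKO and 1.14 ± 0.0499 in WT, and Grm2 at 0.802 ± 0.587 in cKO and 0.965 ± 0.487 in WT. Grm5 was at 0.757 ± 0.471 CPM per kb in cKO and 0.396 ± 0.117 in WT. Grm6 came last, at 0.0544 ± 0.0531 CPM per kb in cKO and 0 in WT. The order by mean level was the same in both genotypes. The ranges over the 6 libraries did not overlap between Grm4 and Grm7, between Grm3 and Grm8, or between Grm5 and Grm6. Grm7 and Grm3 overlapped in range but kept their order in each of the 6 libraries. Grm8 and Grm5 likewise overlapped in range, with Grm8 above Grm5 in each of the 6 libraries. Grm2 could not be ranked against either, since Grm8 lay above it in 4 of 6 libraries and it lay above Grm5 in 3 of 6.

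**Figure D1:**
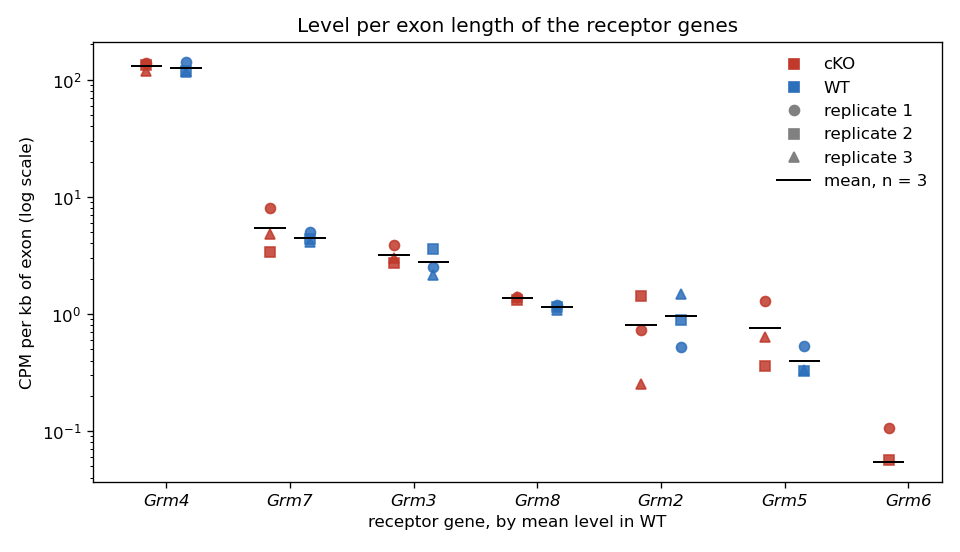
Level of each receptor gene in CPM per kb of exon (log axis) in cKO and WT libraries, with a bar at the mean of 3 libraries. Grm4 lies above 100 CPM per kb and all other genes at or below 8.0; the libraries of Grm6 with 0 counts (1 cKO, 3 WT) cannot be drawn on a log axis, and its cKO bar includes that 0.

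The scale matters for part of this order, because nuclear RNA holds introns and it is not given whether intronic reads were counted. Per 100 kb of gene span, Grm4 was again first (850.0 CPM in cKO and 819 CPM in WT), but Grm2, whose span is only 11.6 kb, came second, with 33.9 CPM in cKO libraries, against 40.8 CPM in WT libraries. Grm7 and Grm8 span 921.9 and 860.0 kb and came after Grm3 on this scale. Grm7 had 3.44 CPM per 100 kb in cKO, against 2.86 CPM in WT, and Grm8 had 1.56 CPM per 100 kb in cKO, against 1.31 CPM in WT.

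By genotype, none of the 6 receptor genes that passed the filter on low counts was called higher or lower in cKO. The call was an adjusted p below 0.05 in edgeR's quasi-likelihood test, and over all 13115 tested genes 0.587% were called. DESeq2 and limma-voom also called 0, though DESeq2 gave an adjusted p to Grm4 only, and an unadjusted p below 0.05 was found for 1 gene in DESeq2 and 0 in limma-voom. An unadjusted p below 0.05 was found for 1 of the 6, Grm5, where 11.9% of all tested genes had such a p. Log2 fold changes were positive for 5 of the 6 (median 0.24), against 48.8% of all tested genes (median -0.01). Summed over the 7 genes, levels were 844 ± 73.0 CPM in cKO and 803 ± 81.5 CPM in WT. Without Grm4 the sums were 89.8, 52.0 and 59.0 CPM in cKO and 56.7, 55.6 and 52.3 CPM in WT, so that cKO replicates 1 and 3 lay above every WT library and cKO replicate 2 below.

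**Figure D2:**
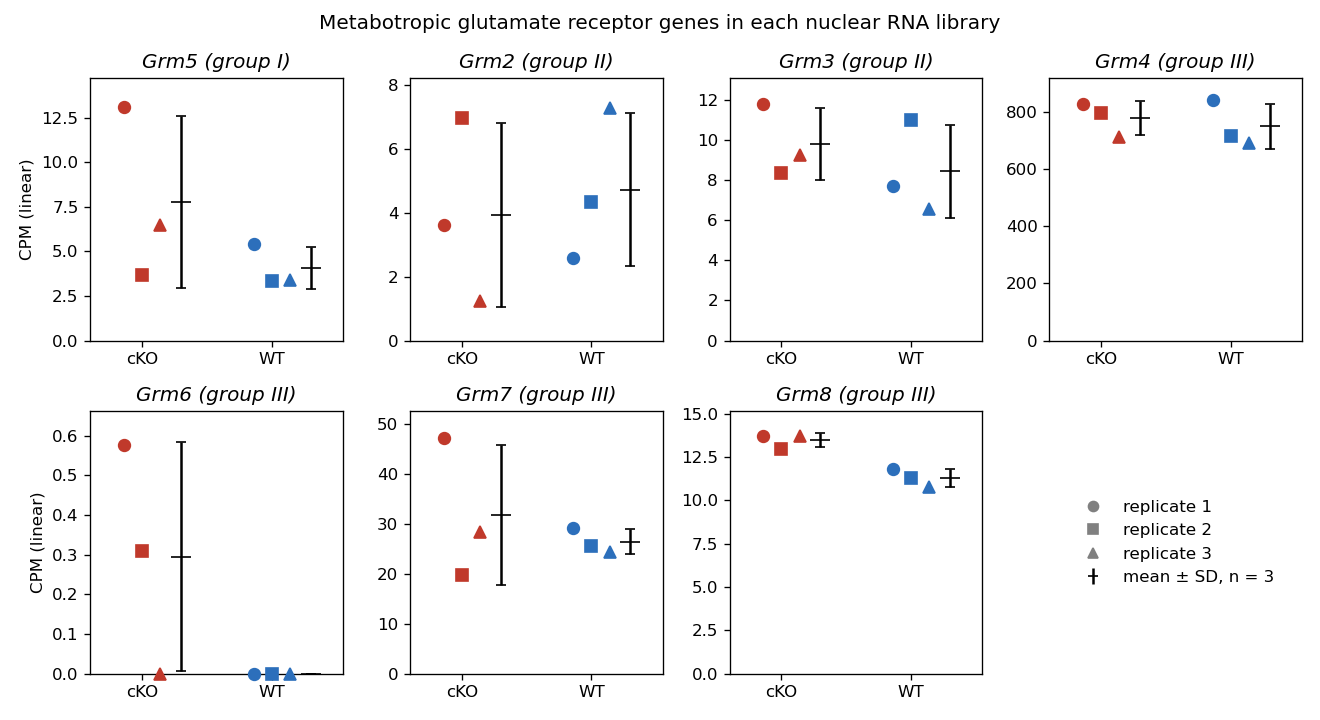
CPM of each receptor gene in the 3 cKO and 3 WT libraries (linear axes from 0, 1 panel a gene), with mean ± SD beside the points. Grm8 is the panel in which every cKO point lies above every WT point; in Grm3, Grm5, Grm6 and Grm7 cKO replicate 1 is the highest point.

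Grm4 (NCBI gene 268934; chromosome 17, 27422387 to 27513826, minus strand, GRCm38), the group III receptor of parallel fibre terminals, had 826, 794 and 711 CPM in cKO replicates 1, 2 and 3 and 840.0, 714 and 692 CPM in WT replicates 1, 2 and 3. All cKO values lay within the range of the WT values. The means were 777 ± 59.4 CPM in cKO and 749 ± 79.7 CPM in WT, with a log2 fold change of 0.05 (SE 0.08, 95% interval -0.10 to 0.21, edgeR adjusted p = 0.839). With 15502 counts in sum in cKO and 16384 in WT, it was the most precisely measured member, and the interval spans changes from 0.931-fold to 1.16-fold.

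Grm8 (NCBI gene 14823; chromosome 6, 27275121 to 28135146, minus strand), another presynaptic group III receptor, had 13.7, 13.0 and 13.7 CPM in cKO and 11.8, 11.3 and 10.8 CPM in WT. Every cKO library lay above every WT library, as in 7.91% of all tested genes. The mean was 19.1% higher in cKO (13.4 ± 0.416 CPM in cKO and 11.3 ± 0.494 CPM in WT), with a log2 fold change of 0.25 (SE 0.19, 95% interval -0.13 to 0.64, edgeR adjusted p = 0.651). An exact two-sided permutation test gave p = 0.1, which is as low as 6 libraries split evenly can go, and 0.2 to 0.8 for the other 5 tested receptor genes. With only 78 to 95 counts in a library, these values lay closer together than counting error alone gives on average: their SD was 0.292 times the counting SD in cKO and 0.398 times in WT. Mir592, a microRNA gene inside Grm8, had 0 counts in all 6 libraries.

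Grm7 (NCBI gene 108073; chromosome 6, 110645349 to 111567230, plus strand) encodes a receptor of the presynaptic active zone with a low affinity for glutamate. It had 47.1, 19.8 and 28.3 CPM in cKO and 29.2, 25.6 and 24.3 CPM in WT. The cKO libraries held both the highest and the lowest value, and replicate 1 stood above the rest. The SD among cKO libraries was 6.35 times the counting SD, against 1.33 times in WT. The log2 fold change was 0.27 (SE 0.31, 95% interval -0.49 to 1.04, edgeR adjusted p = 0.809), and leaving out cKO replicate 1 turned it to -0.13 (adjusted p = 0.890). The annotated lncRNA Gm20387 shares exonic bases with the start of Grm7, and it has no entry in the table.

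Grm6 (NCBI gene 108072; chromosome 11, 50850369 to 50866208, plus strand), the receptor of retinal ON bipolar cells, was all but undetected. It had 4, 2 and 0 counts in the cKO libraries and 0, 0 and 0 in the WT libraries, and did not pass the filter. A count of 0 allows up to 3 counts, which is 0.362 to 0.449 CPM in a single WT library. Of the single cKO libraries, replicate 1 (0.576 CPM) lay above that floor and replicates 2 (0.309 CPM) and 3 (0 CPM) below. The cKO mean was 0.295 ± 0.288 CPM. With 6 counts in sum in cKO and 0 in WT, no fold is given. Fitted with no filter, the difference was not called (edgeR adjusted p = 0.483). In that fit Grm6, like Grm5, had an unadjusted p below 0.05, and neither was called. Of its partners in the retinal cascade, the channel gene Trpm1 was at 0.154 CPM in cKO replicate 3 and 0 elsewhere. Nyx, which encodes nyctalopin, averaged 1.90 ± 0.235 CPM in cKO nuclei, against 1.94 ± 0.125 CPM in WT nuclei, and Gpr179 averaged 4.86 ± 0.48 CPM in cKO nuclei, against 5.05 ± 1.09 CPM in WT nuclei.

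Of the group II genes, Grm2 (NCBI gene 108068; chromosome 9, 106644534 to 106656109, minus strand) varied most between libraries of the same genotype. It had 3.60, 6.95 and 1.23 CPM in cKO and 2.57, 4.32 and 7.28 CPM in WT. The highest library was 5.91 times the lowest, and both genotypes spanned most of that range. Counting error does not cover it, since the exact Poisson 95% intervals of cKO replicate 2 (5.07 to 9.30 CPM) and replicate 3 (0.532 to 2.43 CPM) stood apart. These intervals cover counting error only. The log2 fold change was -0.29 (SE 0.53, 95% interval -1.46 to 0.88, edgeR adjusted p = 0.885). It turned to 0.13 without cKO replicate 3 and to 0.18 without WT replicate 3. The summed markers of Golgi and other inhibitory neurons were 201, 174 and 194 CPM in cKO and 184, 218 and 193 CPM in WT. Those of unipolar brush cells were 93.0, 99.9 and 81.4 CPM in cKO and 84.0, 62.5 and 75.5 CPM in WT. The part of these cell types in the Grm2 values was not tested.

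Grm3 (NCBI gene 108069; chromosome 5, 9485236 to 9725352, minus strand), which astrocytes as well as neurons express, had 11.8, 8.34 and 9.24 CPM in cKO and 7.71, 11 and 6.55 CPM in WT. The genotypes overlapped, with the highest value in cKO replicate 1 and the lowest in WT replicate 3. The log2 fold change was 0.22 (SE 0.24, 95% interval -0.26 to 0.71, edgeR adjusted p = 0.767), and it was 0.07 without cKO replicate 1 and 0.06 without WT replicate 3.

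Grm5 (NCBI gene 108071; chromosome 7, 87583981 to 88135063, plus strand), the group I gene, had the largest fold change of the tested receptor genes. It had 13.1, 3.70 and 6.47 CPM in cKO and 5.44, 3.34 and 3.40 CPM in WT. All WT values lay within 3.34 to 5.44 CPM, while cKO replicate 2 lay among them and cKO replicate 1 was 3.92 times the lowest library. Its mean over the cKO libraries, 7.76 ± 4.83 CPM, stood against 4.06 ± 1.2 CPM over the WT libraries, a log2 fold change of 0.95 (SE 0.39, 95% interval 0.13 to 1.77, unadjusted p = 0.0255, adjusted p = 0.335 in edgeR). The exact permutation p was 0.2. The value rested on particular libraries. It was 0.33 without cKO replicate 1 (adjusted p = 0.866), 0.59 without replicate 1 of both genotypes (adjusted p = 0.680), and past the threshold without cKO replicate 2 (1.28, adjusted p = 0.0392).

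**Figure D3:**
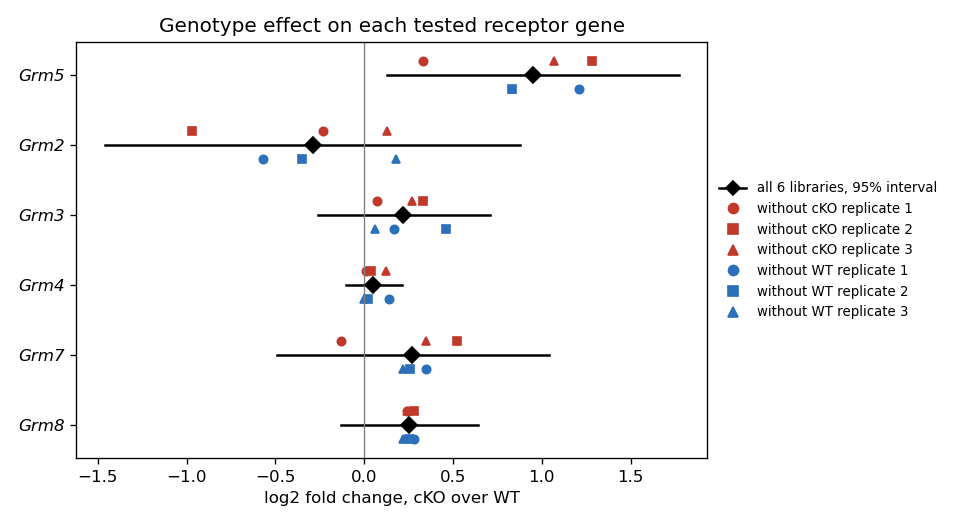
Log2 fold change (cKO over WT) of the 6 tested receptor genes with its 95% interval (black), and the value without each library (coloured symbols). Grm4 and Grm8 stay within 0.00 to 0.14 and 0.22 to 0.28, whereas Grm5 moves between 0.33 and 1.28, Grm7 between -0.13 and 0.52 and Grm2 between -0.97 and 0.18.

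Other genes were also highest in cKO replicate 1, the library in which Grm3, Grm5, Grm6 and Grm7 peaked. The share of all tested genes that were highest in this library was not counted, so the examples below are a description only. Among cKO libraries, this one alone had high Xist (831 CPM) and almost no Y-linked counts (2.45 CPM). What is particular to the library and what goes with high Xist in cKO cannot be told apart. Slc17a6, a vesicular glutamate transporter gene of excitatory neurons outside the granule cell population, was at 1.73 CPM there and at or below 0.243 CPM in the other libraries. Elfn1, which encodes an adhesion protein that binds group III receptors across the synapse, was at 1.30 CPM there and at or below 0.756 CPM elsewhere. Elfn2, its relative, was at 12.1 CPM there and between 4.48 and 5.95 CPM elsewhere. Slc17a6 and Elfn1 did not pass the filter on low counts, and both were named after their values were seen. The marker sums of Purkinje cells (654 CPM), inhibitory neurons (201 CPM) and unipolar brush cells (93.0 CPM) in this library lay within the range of the other 5 libraries, whereas Eomes, at 21.6 CPM, was highest there. Single markers of Purkinje cells and inhibitory neurons went both ways. Gad1 (45.3 CPM), Slc32a1 (8.78 CPM), Calb1 (13.7 CPM) and Pcp2 (13.4 CPM) were also highest there. So were Pcp4, Nxph1 and Sst. Itpr1 (482 CPM), Arhgef33 (51.1 CPM) and Kit (41.6 CPM) were not. Nor were Car8, Ppp1r17, Slc1a6, Gad2, Slc6a5, Sorcs3, Pvalb, Npy and Tfap2b, and Lgi2 (10.1 CPM) was lowest there. These markers too were named after their values were seen. The part of these cell types in the Grm5 and Grm7 values was not tested.

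Among 8038 tested genes with at least 10 CPM, those nearest in profile to each receptor were found by the root mean square difference of centred log2 CPM over the 6 libraries, which share depth and preparation. Nearest to Grm5 was the long noncoding RNA Miat (difference 0.211), which had 130.0, 37.7 and 65.6 CPM in cKO and 37.5, 29.1 and 35.7 CPM in WT, followed by Zfhx3 (0.214) and Hsph1 (0.226). Nearest to Grm7 were B3gat1 (0.133), Casp9 (0.142) and Dner (0.157). Among the genes nearest to Grm4 were Polb (0.0304) and Ppm1a (0.0308), and nearest to Grm8 were Clk3 (0.0165), Dusp15 (0.0167) and Adarb1 (0.0245). Grm3 had P3h1 (0.109), Rhpn1 (0.125) and Chmp1a (0.129), and Grm2 had the largest differences of the 6 receptor genes, with Rnf185 (0.445), Mas1 (0.449) and Nr4a3 (0.484).

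The signalling partners of the receptors were examined as 10 lists of 120 genes, all matched, of which 98 were tested. A single gene was called, Adcy8, higher in cKO, and 0 were called lower, where 0.587% of all 13115 tested genes were called (43 higher and 34 lower). An unadjusted p below 0.05 was found for 18 of the 98, against 11.9% of all tested genes. Log2 fold changes were positive for 61 and negative for 37 (median 0.05), against 48.8% positive over all tested genes (median -0.01). Every cKO library lay above every WT library for 14 of the 98 (7.91% of all tested genes) and below for 9 (8.4% of all tested genes). The counts of single lists given below are to be read beside the same shares.

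Adcy8 encodes a calcium-stimulated adenylyl cyclase, an enzyme of the cyclic AMP pathway that Gi/o-coupled receptors restrain. It had 86.8, 80.4 and 74.5 CPM in cKO and 62.6, 61.0 and 51.9 CPM in WT. The genotypes did not overlap, and the log2 fold change was 0.46 (SE 0.10, 95% interval 0.26 to 0.67, edgeR adjusted p = 0.0215). The fold change stayed between 0.38 and 0.52 in the 15 alternatives, but the call was lost in 5, with adjusted p-values of 0.230 without cKO replicate 1, 0.0738 without WT replicate 2, 0.214 without WT replicate 3, 0.132 without replicate 1 of both genotypes and 0.0569 in limma-voom. Of the 8 adenylyl cyclases tested, 6 were positive (median 0.10) and Adcy8 alone was called.

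**Figure D4:**
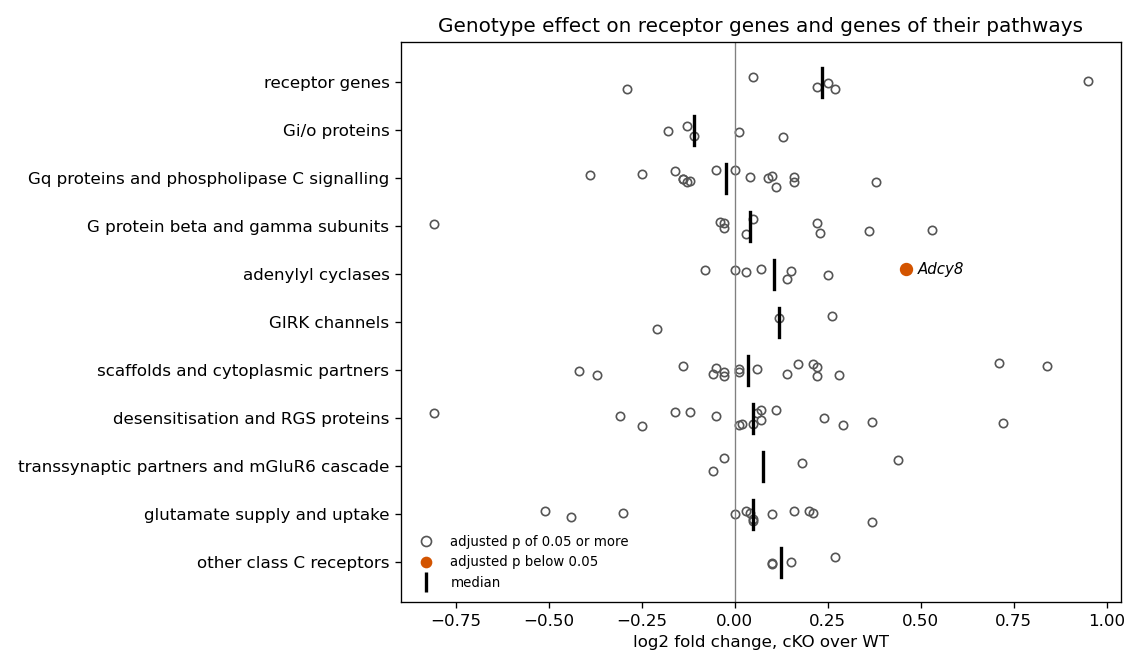
Log2 fold change (cKO over WT) of each tested receptor gene and of each tested gene of the 10 pathway lists, with a bar at each list's median. Adcy8, at 0.46, is the filled point, the gene with an adjusted p below 0.05; list medians lie between -0.11 and 0.24.

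Among the G proteins themselves, 2 of 5 Gi/o subunits were positive (median -0.11) and none was called, 0 with an unadjusted p below 0.05. Gnao1, the abundant Go subunit of neurons, averaged 313 ± 14.1 CPM in cKO nuclei, against 286 ± 21.0 CPM in WT nuclei (log2 fold change 0.13, edgeR adjusted p = 0.535), and Gnai1 averaged 42.1 ± 5.51 CPM in cKO nuclei, against 47.5 ± 3.77 CPM in WT nuclei (-0.18, adjusted p = 0.624). Of 10 beta and gamma subunits 6 were positive (median 0.04), with 0 at an unadjusted p below 0.05, and Gng10 (log2 fold change -0.81, adjusted p = 0.537) and Gng12 (0.53, adjusted p = 0.645) had the smallest p.

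In the Gq and phospholipase C list, through which group I receptors act, 7 of 16 were positive (median -0.02), 2 had an unadjusted p below 0.05 and 0 were called. Itpr3, an inositol trisphosphate receptor gene, had 133, 175 and 181 CPM in cKO and 216, 212 and 213 CPM in WT. Every cKO library lay below every WT library, and the log2 fold change was -0.39 (SE 0.09, edgeR adjusted p = 0.0558), past the threshold in 6 of 15 alternatives, DESeq2 among them (adjusted p = 0.0150). Without cKO replicate 1 it was -0.26 (adjusted p = 0.366). Dgkz, a diacylglycerol kinase gene, averaged 823 ± 33.5 CPM in cKO nuclei, against 920 ± 39.1 CPM in WT nuclei (-0.16, edgeR adjusted p = 0.303).

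GIRK channels, the potassium channels opened by beta and gamma subunits, had members of both signs. Kcnj9 averaged 253 ± 22.5 CPM in cKO nuclei, against 293 ± 13.7 CPM in WT nuclei (log2 fold change -0.21, edgeR adjusted p = 0.263), and Kcnj6 averaged 81.0 ± 8.94 CPM in cKO nuclei, against 67.8 ± 6.63 CPM in WT nuclei (0.26, adjusted p = 0.285). Neither was called, and 2 of the 3 tested GIRK genes had an unadjusted p below 0.05.

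Scaffold and cytoplasmic partner genes had 6 of 18 at an unadjusted p below 0.05 and 0 called (median 0.03). Homer3, which encodes a scaffold that binds group I receptors, averaged 41.3 ± 6.28 CPM in cKO nuclei, against 55.7 ± 10.6 CPM in WT nuclei (log2 fold change -0.42, edgeR adjusted p = 0.178). Dlgap2, a postsynaptic density scaffold gene, averaged 7.43 ± 2.05 CPM in cKO nuclei, against 4.17 ± 0.585 CPM in WT nuclei (0.84, adjusted p = 0.198). Of 17 kinase, arrestin and RGS genes of desensitisation, 3 had such a p and 0 were called. Grk6, a receptor kinase gene, averaged 40.1 ± 1.35 CPM in cKO nuclei, against 49.7 ± 3.51 CPM in WT nuclei (-0.31, adjusted p = 0.240). Rgs11, whose product speeds the turn-off of Go, averaged 7.16 ± 0.654 CPM in cKO nuclei, against 4.35 ± 1.44 CPM in WT nuclei (0.72, adjusted p = 0.289).

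Of the transsynaptic partners and the mGlu6 cascade only 4 of 9 genes were tested, and 0 were called, 1 with an unadjusted p below 0.05. Gpr158, an orphan class C receptor gene, averaged 158 ± 2.55 CPM in cKO nuclei, against 139 ± 15.1 CPM in WT nuclei (log2 fold change 0.18, edgeR adjusted p = 0.410), and for Elfn2 the log2 fold change was 0.44 (adjusted p = 0.644). Among 13 genes of glutamate supply and uptake 10 were positive (median 0.05), 1 had an unadjusted p below 0.05 and 0 were called. Slc1a2, the main glutamate transporter gene of astrocytes, averaged 60.3 ± 9.41 CPM in cKO nuclei, against 46.4 ± 9.56 CPM in WT nuclei (0.37, adjusted p = 0.274), beside astrocyte marker sums that overlapped between the genotypes and of which it is itself a part. Slc1a4, a neutral amino acid transporter gene, averaged 6.72 ± 2.05 CPM in cKO nuclei, against 9.09 ± 0.544 CPM in WT nuclei (-0.44, adjusted p = 0.509). Other class C receptors were positive in 4 of 4 (median 0.13), 1 with an unadjusted p below 0.05 and 0 called. These included Gprc5b (76.8 ± 5.70 CPM in cKO and 63.8 ± 5.10 CPM in WT, 0.27, adjusted p = 0.236) and the GABA-B subunit gene Gabbr2 (206 ± 8.92 CPM in cKO and 186 ± 4.52 CPM in WT, 0.15, adjusted p = 0.461), both with every cKO library above every WT library.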

How the data were processed

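The authors deposited whole-number counts per gene, not normalized, for 6 libraries. Per the submitters' processing notes, Subread and the mm10 genome were used. The version, the annotation and the handling of strand, introns and multiply mapped reads were not given in any source used here. Identifiers were matched to RefSeq GRCm38.p6 (24570 of 24594). The entry with the most counts held 26.0% of them and stayed in the library sizes.

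The genotype comparison was fitted with edgeR 4.0.16 under R 4.3.3 (filterByExpr, 13115 genes kept; TMM scaling; robust quasi-likelihood test of genotype over all 6 libraries; Benjamini-Hochberg adjustment over all genes tested; two-sided). Log2 fold changes are cKO over WT. CPM use TMM-scaled library sizes. The exact permutation tests were two-sided. The test was checked on simulated counts. DESeq2 1.42.0, limma-voom (limma 3.58.1), other scalings and filters, a replicate block, an Xist term and leaving out each library were alternatives. A floor is 3 counts.

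The members, lists and tests were chosen with earlier results of these data known. All 7 receptor genes are named. From each pathway list the called genes are named, or else the 2 with the smallest p. For each tested receptor gene, the 3 genes nearest in profile are named, with predicted gene models passed over; 1 of them is not reported here.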

Additional observations from a re-analysis of the deposited data

How the results depend on the processing

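The number of receptor genes called was 0 under every alternative except without cKO replicate 2, where it was 1 (Grm5), so that leaving out 1 library gave 0 to 1. The number of pathway genes called, 1 with all libraries, was 3 with no filter on low counts (Adcy8, Homer3 and Itpr3), 2 in DESeq2, which gave 54 of the genes an adjusted p, 0 in limma-voom, 2 with an Xist term, 0 without replicate 1 of both genotypes and 0 to 2 when 1 library was left out. Over all genes, 77 were called with all libraries, 277 with no filter, 116 in DESeq2, 42 in limma-voom, 125 with an Xist term, 40 without replicate 1 of both genotypes and 13 (without WT replicate 3) to 249 (without WT replicate 1) when 1 library was left out. The cause was not tested. The log2 fold change of Grm2 ranged from -0.97 to 0.18 and that of Grm7 from -0.13 to 0.52 when 1 library was left out, and Grm7 was at -0.05 without replicate 1 of both genotypes. Grm3, Grm4, Grm5 and Grm8 were never negative in the 15 alternatives, with Grm4 at 0.00 without WT replicate 3. The summed CPM of the 7 genes, nearly all of it Grm4, was 1.05 times as high in cKO as in WT and between 1.006 and 1.115 times in 9 alternatives.

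With replicate number as a block, 2 pathway genes (Adcy8 and Itpr3) and 0 receptor genes were called. The labels share only numbers: deviations of same-numbered libraries correlated at 0.151, 0.00532 and -0.038 over 13115 genes, and 2 of 6 libraries correlated best with their own number. Depth limits Grm6, with at most 4 counts in a library. The 95% intervals of 0.364-fold to 1.84-fold for Grm2 and 1.1-fold to 3.4-fold for Grm5 go with a spread between cKO libraries of 3.74 and 4.43 times the counting SD.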
